A study of Drosophila melanogaster with 6 samples.

Results

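Ion channel genes of nerve, muscle and sensory cells were examined in whole Drosophila melanogaster larvae that carry a PiggyBac insertion in CG1603, a gene for a nuclear zinc finger protein. The genes were taken by symbol from a list of 37, and all 37 were found among the 16727 genes of the count files, elk and trpml under the spellings Elk and Trpml. They comprise 5 calcium channel genes, 4 sodium channel genes, 16 potassium channel genes and 12 genes of transient receptor potential (TRP) and other sensory channels. Poly(A) RNA was sequenced from 3 samples of wt larvae and 3 samples of CG1603PBac larvae, collected at the same time after egg laying; the larval stage of each sample is not given in the sources used here. The mutants were homozygous for PBac[SAstopDsRed]LL06826, which lies in the second intron and adds stop codons in every reading frame, and were picked by a fluorescent CyO, act-GFP balancer after backcrossing to w1118. The study reports that such homozygous larvae stop developing as larvae and later die. The part of this arrest in the channel gene results was not tested. The line descends from 1 insertion, and the background of the wt larvae is not given in the sources used here beyond the name wt. The labels call the 3 samples of a genotype biological replicates, and p-values measure the spread between these samples.

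Excitable cells make electrical signals with a shared kit of channels. Voltage-gated sodium channels start an action potential, voltage-gated potassium channels end it and set the firing pattern, and voltage-gated calcium channels at nerve endings turn it into transmitter release or, in muscle, into contraction. TRP channels, pickpocket channels and Piezo sit at the start of the chain, in sensory neurons, where they turn touch, heat, irritants or light into a current. Many of these genes were first found in flies through mutants that shook, were paralysed by heat or failed to sense a stimulus, which is how Shaker, ether-a-go-go, seizure, paralytic and painless got their names.

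The whole larva was measured, so fewer or more cells of a type and less or more RNA per cell cannot be told apart. Each library held between 27100927 and 36016914 reads in genes. Levels are given in CPM, reads of a gene per 1000000 reads in all genes, with libraries scaled by TMM, a method that sets the typical gene equal across libraries. Tissue markers differed between the genotypes: all 15 neuronal markers were higher in CG1603PBac larvae and all 12 muscle markers lower, although 1 of these, sls, was higher with library totals alone. Summed muscle markers stood at 67263 ± 2657 CPM in wt and 24173 ± 58.1 CPM in mutant larvae (SD, n = 3). Of 10 glial markers 4 were higher and 2 lower, of 8 midgut markers 3 and 4, of 5 cuticle markers 2 and 2, of 4 testis markers 1 and 1, and of 4 fat body markers none and 3. Fbp1 of the fat body and ato and cato of sensory precursors were listed at 0 in every library. The marker lists were chosen with earlier results of these data known. The part of these tissues in the channel gene results was not tested. CG1603 itself had 493 to 613 counts in wt and 956 to 1072 in mutant libraries, and since the insertion lies within the gene, a total over its exons does not check the genotype labels.

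Most channel genes were higher in CG1603PBac larvae. Of the 37, 35 passed the filter on low counts. Among these 27 were higher and 2 lower by edgeR's quasi-likelihood test at an adjusted p of 0.05, and 6 were not called. Over all 11306 genes tested 69.7% were called, 34.8% higher and 34.9% lower. By more than 2-fold, 21 channel genes rose, where 17.0% of all genes did so, and 0 fell, where 15.0% did. Of the rises, 2 were of genes that passed the filter only through their mutant libraries, iav and trpl, and among the other 33 genes 25 were higher and 19 rose by more than 2-fold. The number of channel genes that fell by more than 2-fold was also 0 by DESeq2 and limma-voom. The one gene whose value was below −1, trp, had an unadjusted p of 0.316 in edgeR. The median log2 fold change was 1.33 for the 35 channel genes and 0.06 for all genes tested, whose quartiles were −0.65 and 0.81. In 28 of the 35, iav and trpl among them, the 3 mutant libraries all lay above the 3 wt libraries, and in 1 they all lay below. The share of all genes without overlap was 37.5% upward and 36.3% downward. Scaled to library totals alone, the median of all genes moved up by 0.39 and 50.1% of all genes were higher, and then 30 of the channel genes were higher and none lower.

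**Figure D1:**
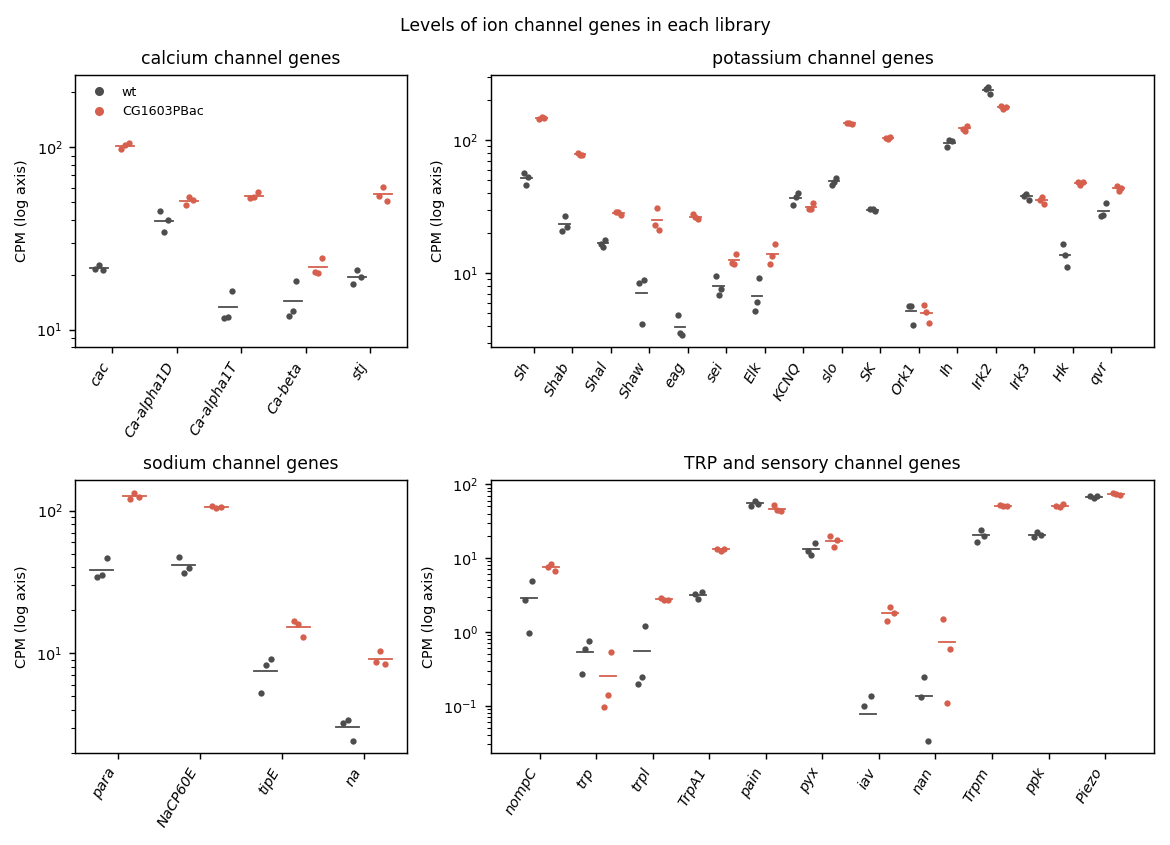
Level of each channel gene in each library, in CPM on a log axis, with wt in grey and CG1603PBac in red, bars at the mean of 3 libraries, and 1 panel for each class (iav lacks 1 wt point and Trpml is left out, since counts of 0 cannot be drawn). The red points of cac, para, Sh and eag lie well above the grey ones, those of KCNQ, Ork1 and Irk3 mix with them, and those of Irk2 lie below.

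All 5 calcium channel genes rose. The class sum went from 108 ± 6.60 to 284 ± 8.94 CPM (SD, n = 3), and 3 of the 5 genes rose by more than 2-fold. The largest rise was in cac (FBgn0263111, cacophony), which encodes the pore-forming subunit of the channel that triggers transmitter release at fly synapses. It lies on the minus strand of chromosome X of dm6, from 11931280 to 11985087, with 11923 bases of exon. Its level was 21.5, 22.7 and 21.3 CPM in the wt libraries and 98.0, 102 and 105 CPM in the CG1603PBac libraries. The libraries of each genotype lay close together and the genotypes far apart. The log2 fold change was 2.22 (SE 0.08, adjusted p = 6.18e-16, edgeR).

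Ca-alpha1T, the gene of a T-type channel that opens at low voltage, rose almost as much as cac. It stood at 11.6, 11.7 and 16.4 CPM in wt and at 52.6, 53.1 and 56.7 CPM in CG1603PBac libraries. The genotypes were far apart, and the log2 fold change was 2.03 (SE 0.13, adjusted p = 6.28e-12, edgeR). The third gene above 2-fold was stj (straightjacket), which encodes an alpha2delta subunit that brings Cacophony channels to the synapse. It went from 17.8, 21.2 and 19.4 CPM to 54.3, 60.5 and 50.9 CPM (log2 fold change 1.51, SE 0.11, adjusted p = 5.50e-11, edgeR).

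The other pair of calcium channel genes rose less. Ca-alpha1D encodes the L-type channel, which carries calcium current in body wall muscle as well as in neurons. It went from 39.6 ± 5.25 to 51.0 ± 2.76 CPM (SD, n = 3), at a log2 fold change of 0.36 with an SE of 0.10 (adjusted p = 0.00326, edgeR). The gap was narrow, since the highest wt library was at 44.7 and the lowest mutant library at 48.1 CPM, and the direction turned (−0.35) once the trend of all genes on exon length was subtracted. Ca-beta, the auxiliary beta subunit, went from 14.3 ± 3.69 to 22.0 ± 2.41 CPM, at a log2 fold change of 0.62 with an SE of 0.16 (adjusted p = 0.00218, edgeR). Its highest wt library, at 18.6 CPM, came close to its lowest mutant library, at 20.5 CPM, and without the length trend the value was 0.02 and the call was lost.

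Because both genes of a pair are counted in the same library, their ratio does not depend on how libraries are scaled. stj and Ca-beta encode auxiliary subunits, while Ca-alpha1D and Ca-alpha1T encode channels other than that of cac. For each read of cac the wt libraries held 2.08, 1.51 and 1.87 reads of Ca-alpha1D, and the CG1603PBac libraries 0.491, 0.524 and 0.489. Per kilobase of exon the L-type gene stood at 3.78 ± 0.501 CPM in wt and 4.86 ± 0.264 CPM in mutant larvae, and cac at 1.83 ± 0.0632 and 8.53 ± 0.287 CPM, so the order of the pair was reversed. Reads of Ca-beta per read of cac were 0.660 ± 0.185 in wt and 0.217 ± 0.0184 in CG1603PBac libraries, and reads of stj 0.890 ± 0.0547 and 0.544 ± 0.0534 (SD, n = 3), with no overlap in either. For Ca-alpha1T the ratio was 0.609 ± 0.140 and 0.533 ± 0.0116, and here the genotypes overlapped. The exons of cac sum to 11923 bases and those of stj to 6273. With the length trend subtracted the log2 fold changes were 1.45 for cac, 1.06 for stj, 0.02 for Ca-beta and −0.35 for Ca-alpha1D. No test was made of these ratios.

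All 4 sodium channel genes rose, each by more than 2-fold. With the length trend subtracted all 4 were still higher, but only na (1.02) stayed beyond 2-fold. The other values were then 0.84 for tipE, 0.82 for para and 0.47 for NaCP60E. The class sum went from 90.4 ± 7.17 to 258 ± 6.73 CPM (SD, n = 3). para (paralytic, FBgn0285944) encodes the voltage-gated sodium channel that carries the action potential of fly neurons. It lies on the minus strand of chromosome X, from 16455027 to 16533096, with 16309 bases of exon spread over 60 annotated transcripts. It stood at 34.1, 35.3 and 46.3 CPM in wt and at 121, 134 and 126 CPM in CG1603PBac libraries. These values do not come near each other, and the log2 fold change was 1.72 (SE 0.09, adjusted p = 1.12e-12, edgeR).

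NaCP60E, a gene whose sequence resembles sodium channels, went from 41.3 ± 5.77 to 106 ± 1.86 CPM, at a log2 fold change of 1.36 with an SE of 0.09 (adjusted p = 8.40e-12, edgeR). pain overlaps it on the opposite strand over 1.11% of its exon bases. tipE, an auxiliary subunit that raises the current through Para channels, was at 5.28, 8.25 and 9.09 CPM in wt and at 16.9, 16.1 and 12.9 CPM in CG1603PBac libraries. It rose (log2 fold change 1.02, SE 0.20, adjusted p = 1.41e-04, edgeR), although 19.0% of its exon bases are shared with CG18675 on the same strand. na (narrow abdomen) encodes the sodium leak channel that sets the resting potential of neurons, clock neurons among them. It went from 3.01 ± 0.509 to 9.07 ± 1.06 CPM, at a log2 fold change of 1.59 with an SE of 0.25 (adjusted p = 6.94e-06, edgeR). Reads of tipE per read of para were 0.195 ± 0.0393 in wt and 0.121 ± 0.0185 in mutant libraries, without overlap. The exons of tipE sum to 4084 bases and those of para to 16309. With the length trend subtracted the rises of the pair were nearly equal, at 0.84 for tipE and 0.82 for para. The ratios of na and NaCP60E to para overlapped between the genotypes.

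Among 11 other genes that work with sodium channels or move sodium, the TipE homologs Teh4 (log2 fold change 1.96) and Teh1 (1.58) rose, as did unc80 (1.66), unc79 (1.49) and Mid1 (1.45), which encode partners of the Na leak channel. In all 7 of the 11 were higher and 2 were lower, with a median of 1.14. The 2 lower ones belong to the sodium-potassium pump. Atpalpha, its catalytic subunit, was at −0.47 but not called with library totals (−0.08), and nrv1, a beta subunit, was at −0.23 but higher with library totals (0.16). nrv3, a beta subunit of the nervous system, rose (1.14).

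Of the 16 potassium channel genes 12 rose, 8 of them by more than 2-fold, 1 fell and 3 were not called. Their median log2 fold change was 0.90. Their summed level went from 656 ± 9.31 to 1035 ± 8.23 CPM (SD, n = 3). The largest change was in eag (ether-a-go-go, FBgn0000535), a voltage-gated channel gene of chromosome X from 14955477 to 15009989 on the plus strand. Its level was low in wt larvae, with 4.85, 3.56 and 3.44 CPM, and stood at 27.8, 26.6 and 25.5 CPM in CG1603PBac libraries. The log2 fold change was 2.75 (SE 0.17, adjusted p = 4.82e-12, edgeR). The related genes Elk and sei (seizure) rose less, with log2 fold changes of 1.04 (SE 0.22) and 0.66 (SE 0.19) and adjusted p of 2.19e-04 and 0.00405 in edgeR. Elk went from 5.18, 6.11 and 9.15 CPM to 11.8, 13.5 and 16.7 CPM, and sei from 9.56, 6.84 and 7.60 CPM to 12.0, 11.8 and 14.1 CPM. Part of sei, 14.6% of its exon bases, is overlapped by ppk29 and gammaSnap1 on the opposite strand.

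Shaker and its relatives Shab, Shaw and Shal, the classical voltage-gated potassium channels, all rose. Sh (Shaker, FBgn0003380), which makes a fast inactivating current in axons and muscle, was at 56.4, 46.2 and 53.0 CPM in wt and at 146, 149 and 146 CPM in CG1603PBac libraries. It lies on the minus strand of chromosome X, from 17924307 to 18063247, and its 22801 bases of exon were the most of any channel gene tested. Its mutant libraries nearly coincided, and the log2 fold change was 1.50 (SE 0.07, adjusted p = 7.01e-14, edgeR). Shab, a delayed rectifier, went from 23.3 ± 3.15 to 78.4 ± 1.91 CPM (1.75, SE 0.10), and Shaw from 7.17 ± 2.61 to 25.1 ± 5.16 CPM (1.80, SE 0.23). Shal, which makes the inactivating current of cell bodies and dendrites, rose least of the 4, from 16.8 ± 0.961 to 28.5 ± 0.737 CPM (0.76, SE 0.12). Reads of Shal per read of Sh were 0.325 ± 0.0252 in wt and 0.194 ± 0.00500 in mutant libraries (SD, n = 3), without overlap. Shal has only 4606 bases of exon. With the length trend subtracted Shal (0.50) and Sh (0.48) were close, below Shab (1.00) and Shaw (1.48), so Shal no longer rose least.

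Hk and qvr encode proteins that act on Shaker channels. Hk (Hyperkinetic) is the cytoplasmic beta subunit and went from 13.8 ± 2.72 to 48.0 ± 1.45 CPM (log2 fold change 1.79, SE 0.13, adjusted p = 6.35e-11, edgeR). qvr (quiver, also sleepless) encodes a membrane-anchored protein that raises Shaker current, and it rose less, from 29.4 ± 3.77 to 43.5 ± 2.03 CPM (0.57, SE 0.11, adjusted p = 8.58e-05, edgeR). Without the length trend the value of qvr was 0.24 and its call was lost. Per read of Sh, Hk stood at 0.268 ± 0.0497 in wt and 0.327 ± 0.0141 in CG1603PBac libraries, and qvr at 0.570 ± 0.0839 and 0.296 ± 0.0176. The ratios moved in opposite directions, and neither overlapped. The exons of Sh sum to 22801 bases, those of Hk to 10725 and those of qvr to 5103. With the length trend subtracted the values were 0.48 for Sh, 1.07 for Hk and 0.24 for qvr, so qvr and Sh lay closer together.

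The calcium-activated channels rose together. slo (slowpoke), the gene of the large-conductance channel, was at 46.0, 49.0 and 52.2 CPM in wt and at 135, 134 and 133 CPM in CG1603PBac libraries. SK, the small-conductance channel, went from 30.6, 30.3 and 29.5 CPM to 104, 102 and 107 CPM, and its reads per read of slo from 0.615 ± 0.0502 to 0.776 ± 0.0224 (SD, n = 3). The libraries of each genotype lay close together for both, with log2 fold changes of 1.45 (SE 0.07) for slo and 1.79 (SE 0.08) for SK and adjusted p of 4.46e-14 and 6.90e-15 in edgeR.

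KCNQ, Ork1 and Irk3 were not called. KCNQ, a slowly activating channel, stood at 36.7 ± 3.88 CPM in wt and 31.7 ± 1.90 CPM in mutant libraries (log2 fold change −0.21, adjusted p = 0.0892, edgeR), and 27.4% of its exon bases lie under CG18011 and an antisense RNA on the other strand. Without wt replicate 1 the value was −0.30 (adjusted p = 0.0227, edgeR), and with library totals it was 0.18. Ork1, an open leak channel, was at 5.18 ± 0.913 and 5.05 ± 0.771 CPM, with an adjusted p of 0.903 in edgeR. Irk3, an inward rectifier, was at 37.9 ± 1.94 and 35.5 ± 2.34 CPM (adjusted p = 0.410, edgeR), and with library totals it was higher, at 0.30 (adjusted p = 0.0116, edgeR). Grip71 overlaps 10.8% of its exon bases on the opposite strand. Ih, the channel that opens on hyperpolarization, rose slightly, from 96.2 ± 6.55 to 123 ± 5.12 CPM, a log2 fold change of 0.35 with an SE of 0.07 (adjusted p = 6.44e-05, edgeR), which turned to −0.45 without the length trend.

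Irk2, an inward rectifier known for its work in the Malpighian tubules, the fly kidney, was the potassium channel gene that fell. It was also the most abundant channel gene per length in both genotypes. Its level was 245, 252 and 221 CPM in wt and 182, 172 and 177 CPM in CG1603PBac libraries. All mutant values lay below all wt values, and the log2 fold change was −0.43 (SE 0.06, adjusted p = 4.45e-07, edgeR). With library totals alone the value was −0.04 and the call was lost.

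Of 13 other potassium channel genes and regulators, 9 were higher and 3 lower, with a median log2 fold change of 1.22. CG1688 (2.48) and CG42594 (2.15) had the largest called rises, and CG9194 (galene, −1.22) and CG8713 (sandman, −1.07), both genes of leak channels with a pair of pore domains, the largest falls.

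**Figure D2:**
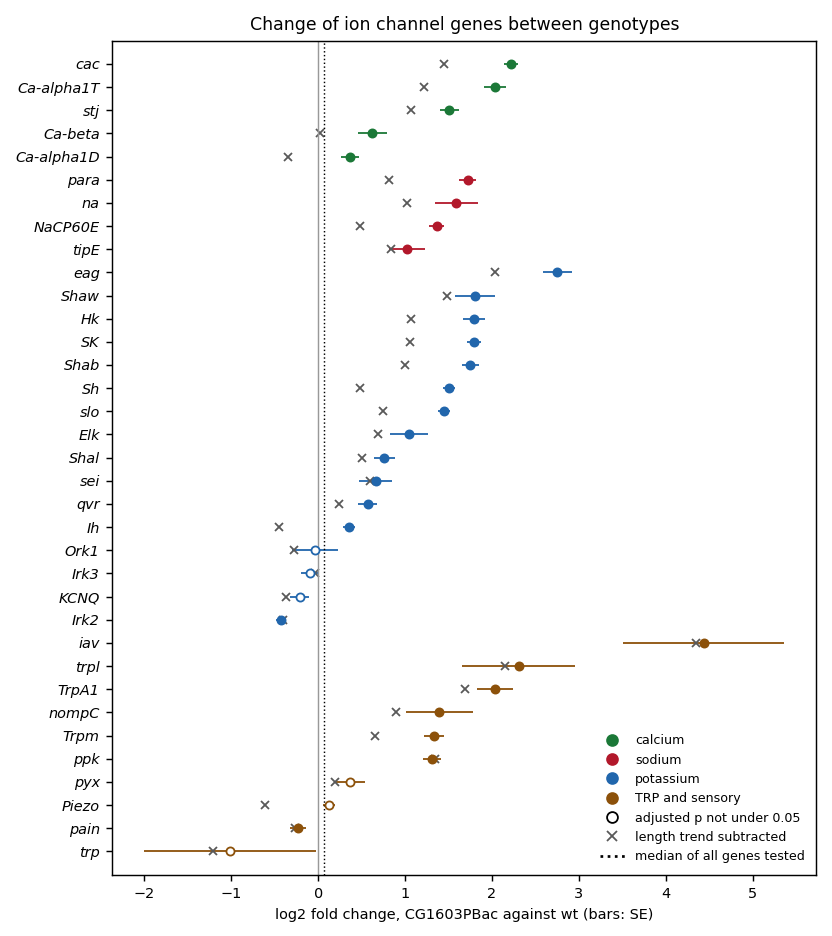
Log2 fold change of each of the 35 channel genes tested, CG1603PBac against wt (horizontal axis), with its SE as a bar, the class as colour, open symbols for genes that were not called, crosses for the value with the trend on exon length subtracted, and a dotted line at the median of all genes tested, 0.06. Sodium and calcium channel genes all lie to the right of it, and Irk2 and pain are the filled symbols to the left of 0.

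Of the 12 sensory channel genes 10 were tested: 6 rose, all by more than 2-fold, 1 fell and 3 were not called. Of the 6, iav and trpl passed the filter only through their mutant libraries, and the others were TrpA1, ppk, Trpm and nompC. The median of the 10 log2 fold changes, with iav and trpl included, was 1.32. The class sum went from 184 ± 7.79 to 266 ± 11.1 CPM (SD, n = 3). TrpA1, a channel for heat and irritants in nociceptive neurons, was at 3.22, 2.83 and 3.51 CPM in wt and at 13.4, 12.4 and 13.3 CPM in CG1603PBac libraries. No mutant library came near the wt range (log2 fold change 2.03, SE 0.21, adjusted p = 2.06e-08, edgeR). ppk (pickpocket), which marks the same class of branched nociceptive neurons of the larval body wall, went from 19.2, 22.3 and 20.4 CPM to 50.6, 48.4 and 53.8 CPM (1.30, SE 0.10, adjusted p = 3.56e-10, edgeR). Trpm, a channel that carries magnesium and zinc, rose from 20.2 ± 3.56 to 50.9 ± 1.22 CPM (1.33, SE 0.12, adjusted p = 1.96e-09, edgeR).

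pain, pyx and Piezo, further channels of nociception and touch, gave other values. pain (painless), needed for the response to noxious heat and pressure, was at 54.9 ± 4.06 and 46.6 ± 4.28 CPM with overlapping libraries. It fell (log2 fold change −0.24, adjusted p = 0.0282, edgeR), and the value was 0.16 with library totals. Of its exon bases 5.69% lie under NaCP60E on the opposite strand. The call was also lost without wt replicate 2 (−0.19), CG1603PBac replicate 2 (−0.20) or CG1603PBac replicate 3 (−0.19). pyx (pyrexia), a channel opened by heat, had a log2 fold change of 0.37 (adjusted p = 0.0632, edgeR), and 14.9% of its exon bases are overlapped on the opposite strand. It passed in 6 of 15 alternatives, at 0.52 without wt replicate 3, 0.50 without CG1603PBac replicate 2 and 0.76 with library totals among them. Piezo, a channel opened by membrane stretch, was at 69.6, 64.7 and 69.9 CPM in wt and at 77.0, 73.9 and 71.8 CPM in mutant libraries. Its libraries did not overlap, yet the difference of 0.12 was not called (adjusted p = 0.136, edgeR). It was higher with library totals (0.52) and, with the length trend subtracted, below that trend (−0.61).

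Channels of chordotonal organs, the stretch and sound receptors of the fly, were rare in these libraries. nompC, a gene for a touch and hearing channel, had 82, 28 and 145 counts in the wt and 237, 301 and 273 counts in the mutant libraries. It rose (log2 fold change 1.39, SE 0.38, adjusted p = 0.00327, edgeR), and the size rested on single wt libraries, with 2.01 without wt replicate 3 and 0.98 without wt replicate 2. iav (inactive) had 3, 0 and 4 counts in the wt and 43, 78 and 74 in the mutant libraries. Its fitted log2 fold change was 4.44 (SE 0.93, adjusted p = 2.34e-04, edgeR), or 5.02 without wt replicate 3 and 3.88 without wt replicate 2, sizes that rest on a few wt reads. It passed the filter only through the mutant libraries, so a difference was required for it to be tested. nan (nanchung), whose product forms a channel with that of iav, had 4, 7 and 1 counts in the wt and 47, 4 and 24 in the mutant libraries, too few to be tested, and the genotypes overlapped. Of 14 markers of sensory neurons 11 were tested and 6 were higher, with a summed level of 31.1 ± 4.88 CPM in wt and 66.4 ± 2.93 CPM in mutant larvae. Of these 6, 5 are chemosensory receptor genes (Orco, Ir25a, Ir76b, Gr28b and Gr66a) and the other is nompB (1.92), while nompA (0.10), dila (0.33), ktub (−0.02), btv (1.58) and Dhc93AB (1.01) were not called. Their part in the changes of nompC and iav was not tested.

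trp and trpl, the channels of phototransduction, had few counts. trp had 8, 17 and 22 in the wt and 3, 5 and 22 in the mutant libraries (adjusted p = 0.371, edgeR). trpl had 6, 7 and 36 in the wt and 89, 98 and 110 in the mutant libraries. Its log2 fold change was 2.31 (SE 0.65, adjusted p = 0.00344, edgeR), or 3.60 without wt replicate 3, and like iav it passed the filter only through the mutant libraries. Markers of photoreceptors were higher as well, 7 of the 10 tested, with sums of 61.2 ± 7.70 and 209 ± 5.31 CPM. The others, inaD (0.16), ninaC (0.04) and gl (1.08), were not called, and ninaE had too few counts to be tested. The part of photoreceptors in the change of trpl was not tested. Trpml, of the endolysosome, was listed at 0 in every library, and since the annotation used for counting is not given in the sources used here, the 0 is not read as a level.

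Among 24 other TRP and sensory channel genes, 15 were tested, 7 were higher and 8 not called by edgeR. All 15 values were above 0, from 0.10 to 3.73, and their median was 0.73. The largest rises were those of the pickpocket genes ppk6, from 2.84 to 37.9 CPM (log2 fold change 3.73), and ppk29 (2.74), which overlaps sei, and the smallest called ones those of wtrw (0.57) and ppk30 (0.89). ppk26, whose product pairs with that of ppk in the body wall neurons, went from 45.3 to 100 CPM (1.15), close to ppk itself.

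Among 9 other genes of calcium channels, stores and exchange, 5 were higher and 2 lower. Calx, the sodium-calcium exchanger, went from 23.5 to 273 CPM (log2 fold change 3.53) and CG4587 (stolid), an alpha2delta gene like stj, had 2.53. Ca-P60A (SERCA), the calcium pump of the muscle reticulum, went from 6355 to 1420 CPM (−2.16) and RyR, the calcium release channel of the same store, fell by 1.33 on the log2 scale, beside the lower muscle markers, whose part was not tested. Of 10 tested chloride and cyclic nucleotide channel genes 4 were higher and 4 lower, with Cngl at 2.08 and CngA at 1.01 and with subdued at −1.20 and ClC-a at −0.74. Over all 58 other channel genes tested, 32 were higher and 11 lower, or 40 and 7 with library totals. Of all genes tested, 34.8% were higher and 34.9% lower, and 50.1% were higher with library totals.

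Channel genes were next set against general neuronal markers. The 15 marker genes, none of them a channel gene, summed to between 727 and 810 CPM in wt libraries and between 1983 and 2079 CPM in CG1603PBac libraries, which is 2.67-fold on average, and had a median log2 fold change of 1.53. The most abundant in the CG1603PBac libraries were cpx (complexin, 1.29), fne (found in neurons, 1.88) and nSyb (synaptobrevin, 1.30). A ratio of a channel gene to this sum in the same library is free of library scaling. By this ratio 9 of the 35 channel genes were higher in every CG1603PBac library than in any wt library, 14 were lower in every one, and 12 overlapped. Over all 11306 genes tested 5.73% were higher without overlap by the same ratio and 76.4% lower. These are descriptions, with no test.

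For 12 genes the ratio overlapped between the genotypes. slo stood at 6.44 ± 0.308% of the marker sum in wt and 6.60 ± 0.193% in mutant libraries, Sh at 6.80 ± 0.616% and 7.22 ± 0.104%, and stj at 2.56 ± 0.306% and 2.71 ± 0.208% (SD, n = 3). NaCP60E, na, tipE, Shaw, Elk, nompC, trpl, Trpm and ppk overlapped in the same way. Among the 9 with a higher ratio, cac stood at 2.86, 3.12 and 2.63% in the wt and 4.94, 4.92 and 5.13% in the mutant libraries, Ca-alpha1T at 1.73 ± 0.258% and 2.66 ± 0.112%, and eag at 0.520 ± 0.113% and 1.31 ± 0.0793%. para, Shab, SK, Hk, TrpA1 and iav were the other 6 that lay above without overlap, and iav had passed the filter only through its mutant libraries. The markers in the sum had log2 fold changes of their own from 0.74 (Syx1A) to 2.14 (VAChT). The log2 fold changes of para, Shab, SK, Hk, Ca-alpha1T and TrpA1 lay within that range, and those of cac, eag and iav above it. The 14 with a lower ratio included Irk2, from 31.5 ± 3.78% to 8.71 ± 0.466%, and KCNQ, from 4.81 ± 0.430% to 1.56 ± 0.0956%. Ca-alpha1D, Ca-beta, Shal, sei, qvr, Ih, Irk3, Ork1, pain, pyx, Piezo and trp made up the rest of that group.

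**Figure D3:**
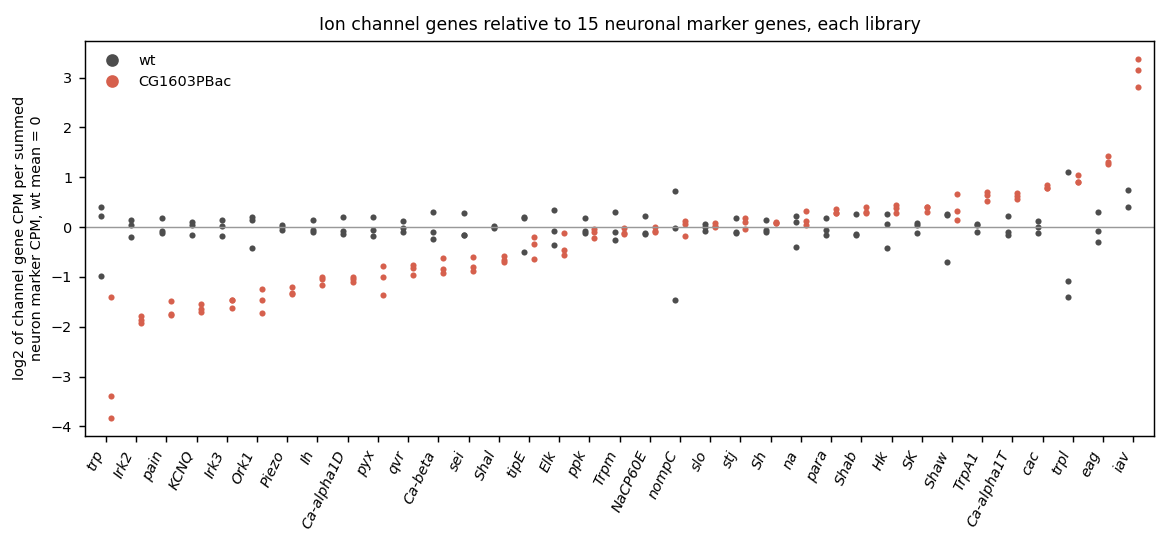
Level of each channel gene as a ratio to the summed level of 15 neuronal markers in the same library, shown as log2 with the wt mean at 0, with wt in grey and CG1603PBac in red. Genes are ordered by the mutant mean, with trp, Irk2, pain and KCNQ at the left and eag and iav at the right, and the zero count of iav in 1 wt library is not drawn.

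Per kilobase of exon, the order of the channel genes changed between the genotypes. In wt larvae Irk2 led with 95.8 ± 6.45 CPM per kb, followed by Irk3 at 18.1 ± 0.924, pain at 18.0 ± 1.34 and KCNQ at 9.47 ± 1.00 (SD, n = 3), of which Irk3 and pain did not differ beyond their spread. In CG1603PBac larvae Irk2 still led with 70.9 ± 2.10 CPM per kb, and ppk, at 20.7 ± 1.11, came next, ahead of Irk3 at 16.9 ± 1.12, pain at 15.3 ± 1.41 and slo at 13.2 ± 0.108. para was at 2.36 ± 0.413 CPM per kb in wt and 7.79 ± 0.399 in mutant larvae, and Sh at 2.27 ± 0.227 and 6.45 ± 0.0858, both below Irk2, Irk3 and pain in either genotype.

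**Figure D4:**
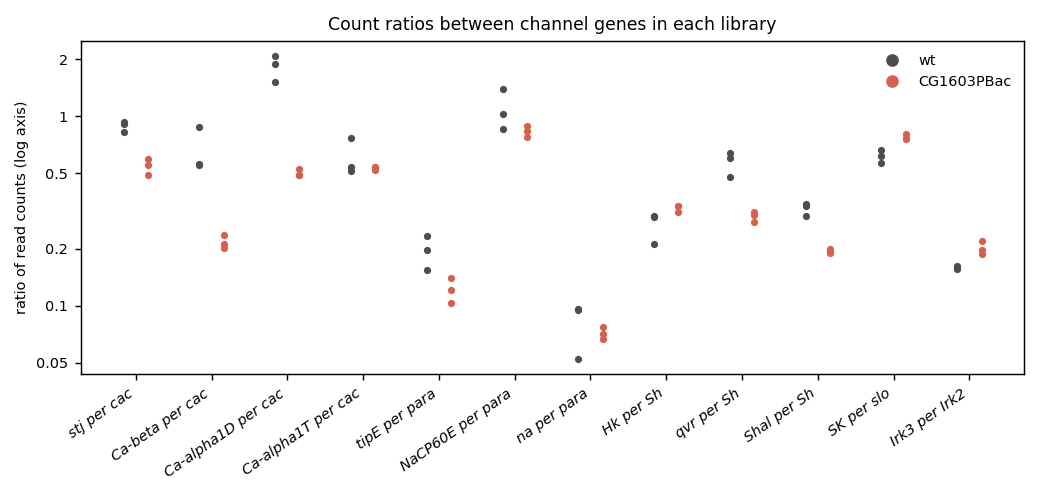
Ratio of read counts between 12 pairs of channel genes in each library, on a log axis, with wt in grey and CG1603PBac in red. Ratios to cac were lower in the mutant for stj, Ca-beta and Ca-alpha1D and overlapped for Ca-alpha1T, and ratios of SK to slo, Hk to Sh and Irk3 to Irk2 were higher.

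Channel genes are long, and longer genes tended to be higher in CG1603PBac libraries. The median exon length was 6273 bases for the 35 channel genes and 1951 bases for all genes tested, and the median span of the gene 19561 and 2579 bases. Over the 11174 genes with a length, Spearman's rho between log2 fold change and exon length was 0.18, and over the 35 channel genes it was 0.40. These values are across genes in the same 6 libraries and carry no test. With the trend of all genes on length subtracted, the median of the channel genes was 0.68, and 23 were higher and 6 lower. Higher and lower here mean above and below the trend. The trend came from the same 6 libraries and was taken as fixed, so its own error is not in these p-values. In the same fit the median of all genes was −0.02, with 31.5% higher and 36.4% lower. Rises of more than 2-fold went from 21 to 12 channel genes, where 14.9% of all genes rose by as much. The calls of cac (1.45), Ca-alpha1T (1.22), stj (1.06), para (0.82), Sh (0.48), eag (2.03), SK (1.06) and TrpA1 (1.68) were kept. The 6 genes below the trend were Irk2, pain, KCNQ (−0.37), Ca-alpha1D (adjusted p = 0.00427, edgeR), Ih (adjusted p = 3.60e-06, edgeR) and Piezo (adjusted p = 2.26e-07, edgeR). In CPM, every mutant library of Ca-alpha1D, Ih and Piezo lay above every wt library. The median of the 15 neuronal markers was 1.02 in the same fit, against 1.53 with the trend kept, and all 15 were higher. The part of neuronal genes in the length trend was not tested.

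**Figure D5:**
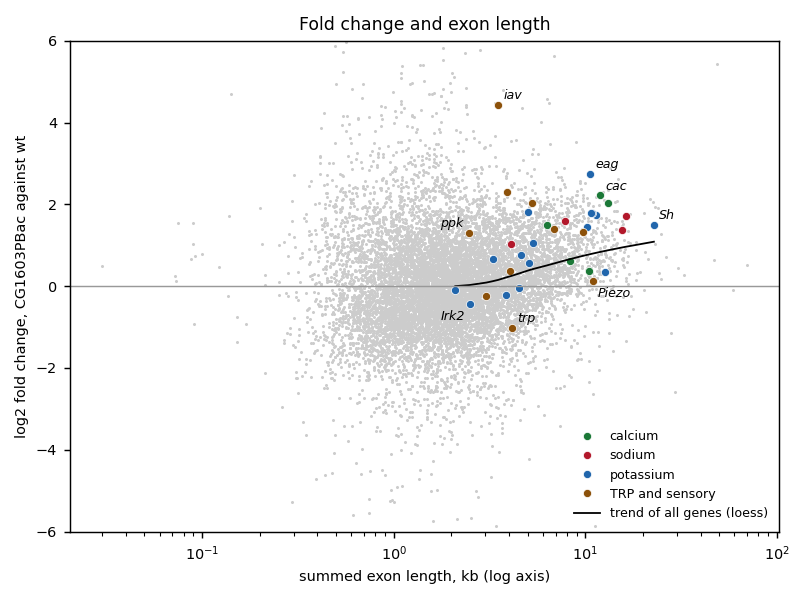
Log2 fold change against summed exon length on a log axis (kb) for the genes tested that have a length (grey) and the channel genes (coloured by class), with the loess trend of all genes as a line; the vertical axis stops at 6 in both directions, which leaves out 62 genes. Most channel genes lie above the line, eag and cac well above it, and Piezo and Irk2 lie below.

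Of the 35 channel genes tested, 10 lie on chromosome X, among them cac, Ca-alpha1T, para, na, Sh, eag, SK and Hk. Of these 10, 9 were higher, with a median log2 fold change of 1.79, and the exception was Ork1. One of the higher genes, iav, passed the filter only through its mutant libraries. The exons of cac, Ca-alpha1T, para, Sh, eag, SK and Hk sum to 10636 to 22801 bases, and those of na, Ork1 and iav to 3512 to 7875. Elsewhere 18 of 25 were higher, with a median of 0.76. Over all genes tested the medians were 0.11 on chromosome X and 0.05 elsewhere, and 34.8% of all genes, on any chromosome, were higher. That share was not computed for chromosome X alone. The difference between chromosomes, and the part of exon length in it, was not tested.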

How the data were processed

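Poly(A) RNA of whole larvae was sequenced in 3 wt and 3 CG1603PBac libraries. Per the submitters' processing notes, reads were aligned to build dm6 (STAR) and assigned to genes by HTSeq. The files hold whole-number counts as deposited, neither normalized nor pooled. The annotation version and strand setting are not given in the sources used here, so overlapping genes are named. HTSeq categories that name no gene were left out. Symbols were matched to the Ensembl annotation in dm6 coordinates (12512 current, 3952 older, 263 unmatched).

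Counts were scaled by TMM (factors 0.872 ± 0.0129 in wt, 1.15 ± 0.00338 in CG1603PBac) and tested over 11306 genes with edgeR 4.0.16 in R 4.3.3 (robust quasi-likelihood F test, filterByExpr with a minimum count of 10 and total of 15), with Benjamini-Hochberg adjustment over all of them and a threshold of 0.05. 2-fold means a log2 fold change beyond 1 as well. The 37 channel genes and all lists were chosen with earlier results of these data known. All channel genes are named; of other channel lists, the 2 highest and 2 lowest calls and a few chosen after their values were seen. On simulated counts for CG1603PBac against wt (11243 genes), 58.2% of 1.5-fold, 92.4% of 2-fold and 100% of 4-fold changes were recovered, and 7.26% of the calls were false. Only 200 genes were changed there, evenly up and down, with the same dispersion for every gene. In the data 69.7% of genes were called, so these shares need not hold for them. Replicates differed by more than sampling noise (chi-square per gene 7.46 to 17.0). Alternatives were DESeq2 1.42.0, its size factors, library totals, limma-voom 3.58.1, 2 other filters, a replicate block, each library left out, subtraction of a loess trend (span 0.5) on exon length, also combined with the block, and glmTreat.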

Additional observations from a re-analysis of the deposited data

Results flagged for a closer look

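Reads outside the gene counts were more frequent in CG1603PBac libraries. Of aligned reads, those in no annotated gene made up 5.57 ± 0.278% against 2.63 ± 0.198% in wt libraries, and those aligned to more than 1 place 9.93 ± 0.0717% against 5.66 ± 0.204% (SD, n = 3). Of all reads, 31.4 ± 0.445% did not align in CG1603PBac libraries and 8.77 ± 0.354% in wt libraries. They stand out because every mutant library lay above every wt library in data that the channel gene comparisons do not use, and their part in the channel gene results was not tested.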

How the results depend on the processing

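Of the 35 channel genes tested, 24 kept their direction and their side of the threshold under every alternative that tested them, 23 of these called. The number called higher was 23 to 30 over the alternatives (27 to 29 with a library left out). With library totals no channel gene was lower, none in the potassium and none in the sensory class (0 each), and 7 other channel genes were. The signs of KCNQ (0.18), Ork1 (0.36), Irk3 (0.30) and pain (0.16) turned there. With at least 10 counts in every library, which leaves out iav, trp and trpl, 1 channel gene was lower and 0 in the sensory class. With the length trend removed, 6 were lower, which here means below that trend (1 calcium, 3 potassium, 2 sensory). In that fit 3 calcium genes were higher, 12 genes rose beyond 2-fold, and the signs of Ca-alpha1D (−0.35), Ih (−0.45) and Piezo (−0.61) turned. With the replicate block as well, the numbers lower were again 6, 1, 3 and 2, with 3 calcium genes higher, and the values −0.35, −0.45 and −0.61. The replicate block alone gave 27 higher and 2 lower, with no call changed. The replicate numbers do not pair samples across genotypes (correlations of deviations −0.0204 to 0.00573). With 1 library left out, 1 to 3 were lower (potassium 1 to 2, sensory 0 to 1), and Ork1 (−0.04 with all) ran from −0.19 to 0.076, with 0.033 without wt replicate 1, 0.025 without wt replicate 2 and 0.076 without CG1603PBac replicate 3. By glmTreat 18 rose beyond 2-fold, but the share of all genes by that method is not given, so the 18 is not read against it. Changes in trp, trpl, iav and nan are limited by depth.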
